A study of Mus musculus with 6 samples.

Results

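Interferon-stimulated genes are transcribed when a cell meets interferon, and their products restrict viruses at many steps. Type I interferons bind a receptor at the cell surface and activate JAK kinases, which phosphorylate STAT proteins. STAT2 then joins IRF9 in the complex ISGF3, which binds interferon-stimulated response elements in the promoters of these genes. In uninfected brain the genes are transcribed at a low tonic level, and microglia, endothelium and the cells of the brain's borders are among the cells that answer interferon.

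The genes described are Ifit1, Ifit2, Ifit3, Isg15, Usp18, Irf7, Stat2, Bst2 and Ifitm3. Their probe sets, the groups of short probes that each measure a transcript, were taken wherever the platform annotation gives exactly 1 gene symbol. That rule found 9 of the 45037 probe sets tested, for 8 of the 9 genes: 2 probe sets for Stat2 and 1 for each of the others. Isg15, a ubiquitin-like modifier, had none, because the probe set that carries its symbol carries that of another gene too, and no value is given for it.

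The arrays, Affymetrix GeneChips of the mouse genome, measured mRNA in frozen cerebellum of 3 wild-type mice and 3 transgenic mice whose genotype is daDREAM, with 1 array per sample. DREAM, the product of Kcnip3, binds DNA and represses transcription until calcium releases it, and daDREAM is a mutant form that stays active irrespective of calcium. The labels name no treatment for either group. Neither the age and strain of the mice nor the promoter that drives the transgene is stated in the labels. The comparison asks whether these transcripts differ between daDREAM and wild-type cerebellum, and whether they vary together from array to array.

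Values are log2 expression, so a difference of 1 is a factor of 2. Cerebellar markers were bright on every array. Those of granule cells averaged 11.11 to 11.37 and those of Purkinje cells 11.3 to 11.48, and the ranges of the genotypes overlapped in both. The medians of the 6 arrays ran from 5.12 to 5.23. Ifit1, Ifit2 and Usp18 lay below these medians on all 6 arrays, and without detection calls their signal cannot be separated from background. Irf7 lay below the median on wild-type replicates 1 and 2 and daDREAM replicate 1, and the same limit holds for it there. The tissue was measured whole, so fewer cells of a type and less RNA per cell cannot be told apart.

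The response element is shown first because it is what these genes are known to share. Its core was searched as GAAA followed by any 2 bases and GAAA again, on both strands (TTTC, 2 bases and TTTC on the other), and was found in 3.44% of 32851 promoter windows of RefSeq (assembly GRCm38.p6), each of 300 bases with 250 before the start of transcription. Of the 8 member genes with a window, 6 held a match, 5 of them before the start: Ifit1, Ifit3, Stat2, Bst2 and Isg15. Usp18 had no window. The stretches printed here hold the matches, in capitals, on the strand of the gene, and all but that of Ifitm3 include up to 30 bases to either side. They lie at chr19:34583343-34583446 (plus strand) for Ifit3, chr10:128270248-128270315 (plus strand) for Stat2, chr19:34640755-34640843 (plus strand) for Ifit1, chr8:71537557-71537632 (minus strand) for Bst2 and chr7:141010716-141010742 (minus strand) for Ifitm3.
Ifit3: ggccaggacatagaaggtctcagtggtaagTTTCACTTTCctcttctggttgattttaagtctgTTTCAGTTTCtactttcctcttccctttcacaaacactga
Stat2: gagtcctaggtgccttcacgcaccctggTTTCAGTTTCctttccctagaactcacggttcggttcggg
Ifit1: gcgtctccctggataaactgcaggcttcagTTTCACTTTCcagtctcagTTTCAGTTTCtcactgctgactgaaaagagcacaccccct
Bst2: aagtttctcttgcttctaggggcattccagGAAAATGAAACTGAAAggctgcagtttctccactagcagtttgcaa
Ifitm3: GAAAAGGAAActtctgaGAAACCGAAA

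Ifit1 and Ifit3 held the same pair of matches, TTTCACTTTC and TTTCAGTTTC, in the same order, and Stat2 held the latter. The matches of Ifit3 began at positions -156 and -122 from the start of transcription, those of Ifit1 at -104 and -85, and that of Stat2 at -222. The pair in Bst2 overlapped, beginning at -130 and -124. Those of Ifitm3 lay past the start, at positions 3 and 20. The windows of Ifit2, of which there are 2, and of Irf7 held no match, which says only that these letters are not in those windows. The letters TTCNNNGAA, an element bound by STAT dimers, which reads the same on both strands, occurred in 8.3% of all windows and in those of Bst2, Ifitm3 and Ifit2. In Bst2 and Ifitm3 that match overlapped one of the response element.

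No member passed the test between genotypes. By limma, 0 of the 9 probe sets fell under an adjusted p of 0.05 (0% over the whole array), and every one of the 9 stood at 0.998. A trended, robust variance prior also called 0. At an unadjusted p under 0.05 there were 2, both higher in daDREAM, where 1.81% of all probe sets were past it, 1.11% higher and 0.706% lower (817 in number). In 7 of 9 the difference was above 0, as it was in 51.8% of all. Of the 8 genes, each by its brightest probe set, 6 were higher, beside 51.2% of all genes. Their median difference was 0.11, beside 0.01 over all 18193 genes. It was 0.05 without daDREAM replicate 3. Values at 3 of the 9 did not overlap between genotypes and were higher in daDREAM: Ifit2, Ifit3 and the brighter probe set of Stat2. Over all probe sets that share was 3.75%, and 2.26% lay without overlap in the other direction, where no member did. The 3 are not counted here as independent of each other. Their r over the arrays, given further on, was 0.80 to 0.97, although no pair passed after adjustment. When each array was centred on its median, only Ifit2 of the 9 was still without overlap (2.99% of all), and after renewed quantile normalization both probe sets of Stat2, Ifit2 and Ifit3 were (4.34% of all).

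**Figure D1:**
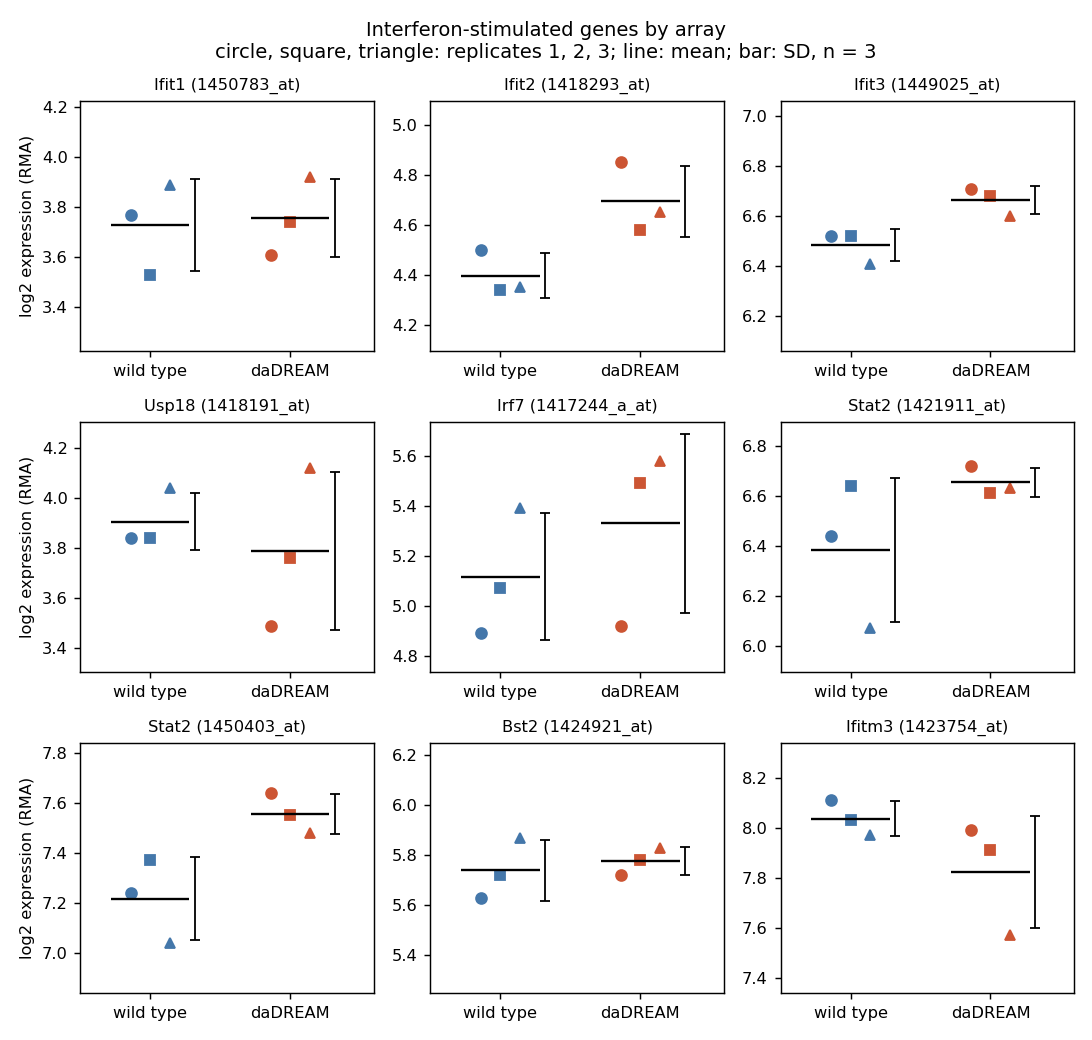
Log2 expression of each of the 9 member probe sets on the 6 arrays, wild type in blue and daDREAM in red, with the mean (line) and SD (bar, n = 3) of each genotype. Each panel spans 1 log2 unit around its own values. Ifit2, Ifit3 and Stat2 1450403_at stand apart by genotype, and the other 6 probe sets overlap.

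Stat2 encodes the transcription factor that carries the signal of type I interferon into the nucleus. Its brighter probe set, 1450403_at, read 7.24, 7.37 and 7.04 in wild type and 7.64, 7.55 and 7.48 in daDREAM. All 3 daDREAM arrays lay above all 3 wild-type arrays, by at least 0.11. The means were 7.22 ± 0.17 and 7.56 ± 0.08 (SD, n = 3). The difference was 0.34 or 1.27-fold, with a 95% interval from 0.04 to 0.64 (limma unadjusted p = 0.0299, adjusted p = 0.998). The second probe set, 1421911_at, read 6.44, 6.64 and 6.07 in wild type and 6.72, 6.61 and 6.63 in daDREAM. Its genotypes overlapped at wild-type replicate 2, and its difference of 0.27 had an interval from -0.10 to 0.64. Without wild-type replicate 3, the lowest array at both, the differences were 0.25 and 0.11.

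Irf7 encodes the interferon regulatory factor that amplifies the production of type I interferon. It read 4.89, 5.07 and 5.39 in wild type and 4.92, 5.49 and 5.58 in daDREAM. Replicate 1 was low in both genotypes, and the groups overlapped. The difference was 0.21, with an interval from -0.26 to 0.69, the widest of the 9. It was 0.42 without daDREAM replicate 1 and 0.0883 without daDREAM replicate 3, with the same call.

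The IFIT proteins bind foreign RNA and hinder its translation. Their genes lie together on chromosome 19, with Ifit2 next to Ifit3 and 5 annotated genes between Ifit2 and Ifit1 in the RefSeq table. Ifit2 read 4.5, 4.34 and 4.35 in wild type and 4.85, 4.58 and 4.65 in daDREAM. The lowest daDREAM array exceeded the highest wild-type array by 0.08. The means were 4.4 ± 0.09 and 4.69 ± 0.14 (SD, n = 3), a difference of 0.30 or 1.23-fold with a 95% interval from 0.01 to 0.58 (limma unadjusted p = 0.0449, adjusted p = 0.998).

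Ifit3 read 6.52, 6.52 and 6.41 in wild type and 6.71, 6.68 and 6.6 in daDREAM. The gap between the groups was again 0.08, and the spread within each was small, with SDs of 0.06 in both. Its difference of 0.18 or 1.13-fold had an interval from -0.08 to 0.44. A close copy, Ifit3b, lies among the genes between Ifit3 and Ifit1, and probe sequences were not used here, so the signal cannot be assigned to one of them.

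Ifit1, the third of the family measured, read 3.77, 3.53 and 3.89 in wild type and 3.61, 3.74 and 3.92 in daDREAM. The groups covered nearly the same range, and the difference was 0.03, with an interval from -0.30 to 0.36. That interval includes the differences of Ifit2 and Ifit3, and whether Ifit1 differs from them was not tested.

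Usp18 encodes the protease that removes ISG15 from proteins and also damps signalling at the interferon receptor. It read 3.84, 3.84 and 4.04 in wild type and 3.49, 3.76 and 4.12 in daDREAM. The lowest and the highest array were both daDREAM. The difference was -0.12, with an interval from -0.51 to 0.28, and it was 0.03 without daDREAM replicate 1.

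Bst2 encodes tetherin, which holds budding virus particles at the cell membrane. It read 5.63, 5.72 and 5.87 in wild type and 5.72, 5.78 and 5.83 in daDREAM. The daDREAM values lay within the wild-type range. The difference was 0.04, and its interval from -0.24 to 0.31 corresponds to 0.849-fold to 1.24-fold.

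Ifitm3 encodes a membrane protein that blocks the entry of viruses from endosomes. It read 8.11, 8.03 and 7.97 in wild type and 7.99, 7.91 and 7.57 in daDREAM. The groups overlapped by 0.02, and daDREAM replicate 3 was the lowest array. Its difference of -0.21 or 0.863-fold, the only one below 0 besides that of Usp18, had an interval from -0.54 to 0.11. It was -0.09 without daDREAM replicate 3.

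**Figure D2:**
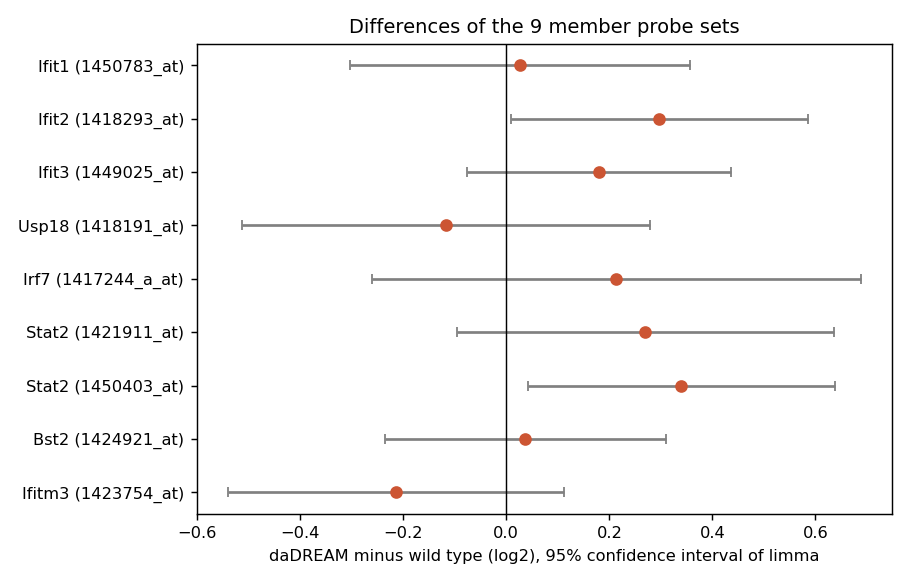
Difference between daDREAM and wild type (log2) at the 9 member probe sets, with the 95% confidence interval of limma. The intervals of Ifit2 and of Stat2 1450403_at lie above 0 before adjustment, and the other 7 include 0.

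The member genes did not vary as a single group over the 6 arrays. Of the 28 pairs of the 8 genes, 9 had a Pearson correlation above 0, or 32.1%, beside 50.1% of all pairs of genes. Their median r was -0.17, beside 0.00129 over all pairs. An r of at least 0.8 in size was reached by 4 of the 28, beside 16.2% of all pairs. The signs of r divided the genes into sets, a grouping made after the values were seen. Ifit2, Ifit3 and Stat2 formed one, with r from 0.80 to 0.97 over its 3 pairs. These 3 also lay without overlap between genotypes, so their r over the 6 arrays includes that shared separation. Ifit1, Usp18, Irf7 and Bst2 formed the other set, with r from 0.56 to 0.85 over its 6 pairs. All 12 pairs between the sets had r below 0, from -0.65 to -0.02, but these signs were not firm. Spearman rho was 0.2 for Ifit1 with Ifit2, and 0.143, 0.143 and 0.087 for Irf7 with Stat2, Ifit2 and Ifit3. It was 0 for Ifit2 with Bst2 and below 0 for the remaining pairs. With 1 array left out, r of Stat2 with Bst2 ran from -0.668 to 0.592. Ifitm3 ran against all 7 other genes, from -0.78 to -0.24.

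The closest pair was Ifit3 and Stat2, which lie on different chromosomes. Their Pearson r was 0.971 (exact permutation p = 0.00278, adjusted p = 0.0778 over the 28 pairs) and Spearman rho 0.986 (exact permutation p = 0.00556, adjusted p = 0.156). Without the 2 arrays most distant from the Ifit3 median it was 0.90, and 0.943 to 0.990 when 1 array was left out. The most opposed pair was Irf7 and Ifitm3, with r = -0.778 (exact permutation p = 0.00694, adjusted p = 0.0972) and rho = -0.943 (exact permutation p = 0.0167, adjusted p = 0.233), and -0.777 for r without the 2 arrays most distant from the Irf7 median. No pair of the 28 passed after adjustment, and 4 had an unadjusted p of r under 0.05.

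The same correlations were computed with the mean of each genotype subtracted. Since the sets were formed on these same arrays, the values are a description and no independent support for the sets, and Ifit1, Ifit2 and Usp18 lie at levels not separable from background. Then r was 0.89 for Ifit3 with Stat2, but 0.47 for Ifit2 with Ifit3 and 0.31 for Ifit2 with Stat2. Pairs within Ifit1, Usp18, Irf7 and Bst2 ran from 0.583 to 0.865. The 12 pairs between the sets ran from -0.93 to -0.25. Ifitm3 changed sides: with Ifit2, Ifit3 and Stat2 its r was now 0.49 to 0.82. With genotype means removed, fewer independent values are left and r is larger in size. Of all pairs of genes 24.5% then reached 0.8 in size, beside 16.2% before. Of the 28 member pairs 12 did, beside 4 before. Renewed quantile normalization moved the median r of the 28 pairs to 0.077.

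**Figure D3:**
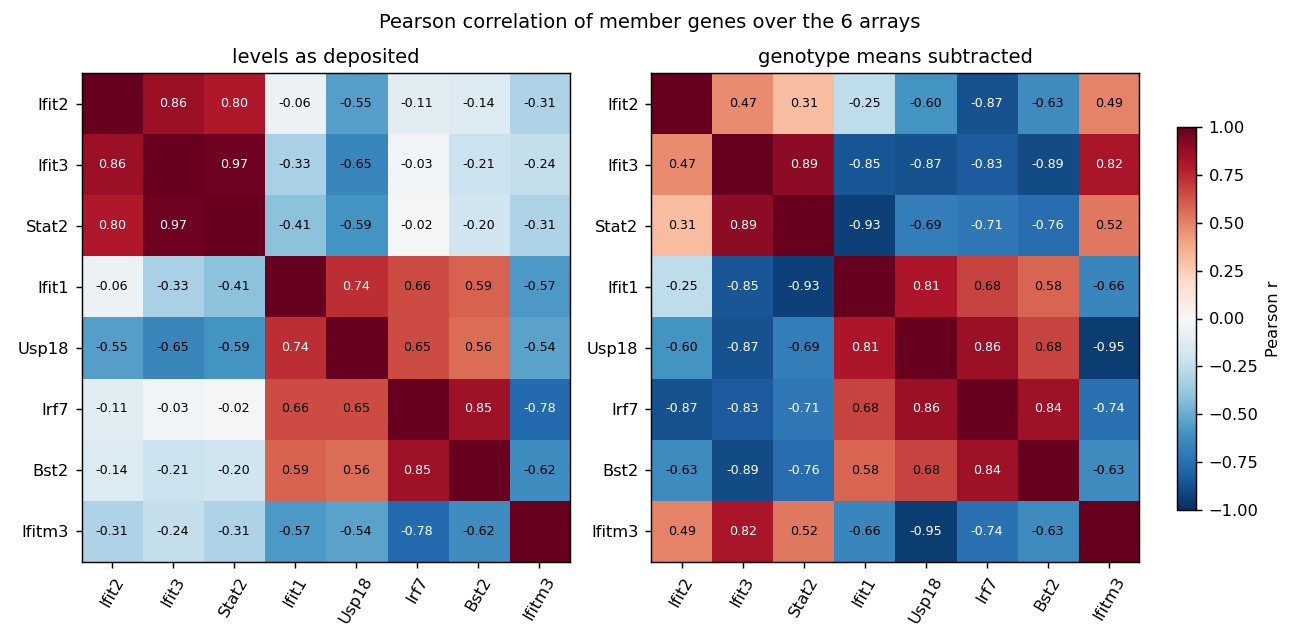
Pearson r over the 6 arrays for each pair of the 8 member genes, each by its brightest probe set, as deposited (left) and with the mean of each genotype subtracted (right), from -1 in blue to 1 in red. The upper left square holds Ifit2, Ifit3 and Stat2 and the middle square Ifit1, Usp18, Irf7 and Bst2, and the blocks between them are below 0 on both sides.

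The arrays that set these patterns can be read from the levels, each gene taken relative to its own mean. Ifit2, Ifit3 and Stat2 averaged 0.23 on daDREAM replicate 1, their highest array, and -0.235 on wild-type replicate 3, their lowest. Ifit1, Usp18, Irf7 and Bst2 averaged -0.21 on daDREAM replicate 1, their lowest, and 0.22 on daDREAM replicate 3, their highest. On wild-type replicate 3 they averaged 0.154. So daDREAM replicate 1 was the highest array for one set and the lowest for the other, while daDREAM replicate 3 lay above the mean for both.

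Some of the members moved with array-wide values. The hybridization controls, RNA added to every array in fixed amounts, averaged 8.99 to 9.48 in wild type and 9.47 to 10.5 in daDREAM over 18 probe sets. The mean centred level of the 8 genes followed them closely, as a description, at r = 0.997 over the 6 arrays, and signs of RNA quality ran against it, the difference between the 3′ and 5′ control probe sets at r = -0.871 for Gapdh and -0.652 for Actb. The interquartile range of the array stood at r = -0.702. Gene by gene, 1 of the 8 relations with the hybridization controls passed. Ifitm3 fell with them at r = -0.893 (exact permutation p = 0.00139, adjusted p = 0.0111 over 8 relations) and rho = -1 (exact permutation p = 0.00278, adjusted p = 0.0222), and r was -0.845 without the pair of arrays most distant from the median control level. Irf7 had r = 0.849 (exact permutation p = 0.0375, adjusted p = 0.15) and rho = 0.943 (exact permutation p = 0.0167, adjusted p = 0.0667), and r was 0.456 without the 2 farthest arrays. Ifit2, Ifit3 and Stat2 had r of 0.42, 0.435 and 0.419, with exact permutation p of 0.4, 0.389 and 0.407. Averaged over these genes, wild-type replicate 3 was the lowest array and daDREAM replicate 1 the highest, with control levels of 9.476 and 9.466. These 2 arrays were picked after the values were seen and cannot show how far the genes follow the controls. The part of the control level in their differences was not tested. Bst2, Ifit1 and Usp18 had r of 0.638, 0.574 and 0.333, and none of these passed. Batches are not named in the labels, and within a genotype there are too few arrays for a correlation. With the control level as a covariate, which partly follows genotype, Stat2 1450403_at differed by 0.55, Ifit2 by 0.48 and Ifit3 by 0.29, all larger than without it. Usp18 differed most, by -0.60, with the smallest p of the 9 (limma unadjusted p = 0.00438, adjusted p = 0.0979). No member passed the adjusted threshold in that fit. Ifitm3 then differed by 0.08, Irf7 by -0.42, Ifit1 by -0.27 and Bst2 by -0.12, with signs opposite to those without it.

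**Figure D4:**
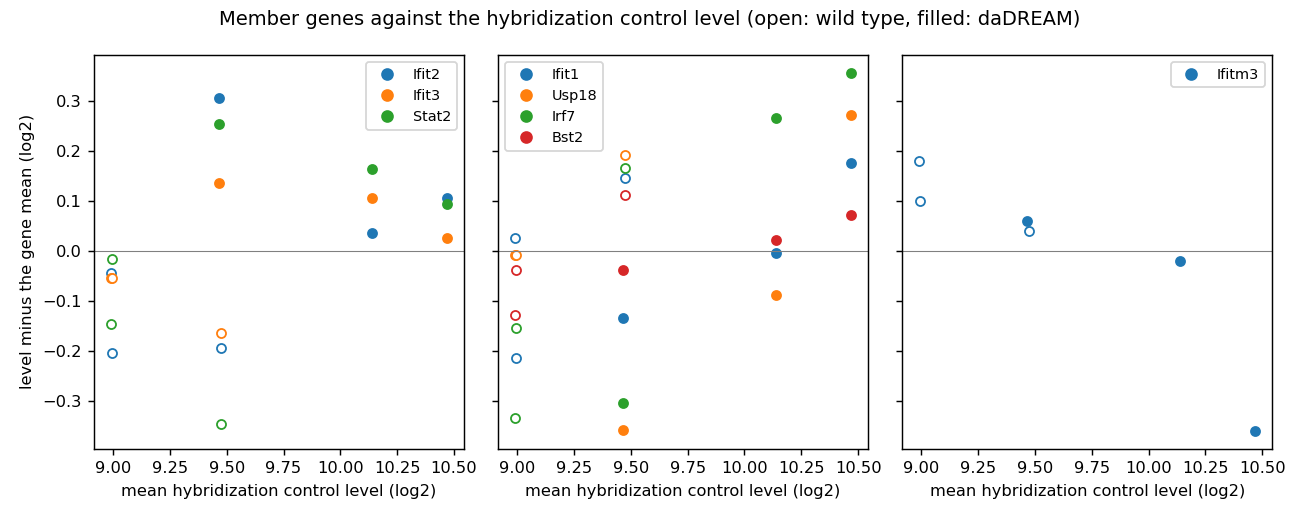
Level of each member gene minus its own mean (log2) against the mean level of the hybridization controls (log2), with 1 point per array, open for wild type and filled for daDREAM. Left, Ifit2, Ifit3 and Stat2, whose filled points lie above the open ones gene by gene; middle, Ifit1, Usp18, Irf7 and Bst2; right, Ifitm3, which falls from 0.18 to -0.36.

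The mean levels of 3 marker lists of other cells also lay apart by genotype, although limma called 0 genes of any marker list after adjustment. The choroid plexus list was higher in daDREAM in 12 of 12 genes. Its mean level was 5.57 to 5.83 in wild type and 6.04 to 6.22 in daDREAM, and 7 of its 12 genes did not overlap. Over all genes, 3.55% lay without overlap higher in daDREAM and 2.04% lower. Ttr, the most abundant gene of the list, differed by 0.43. Microglial markers were higher in 9 of 11, with 6.10 to 6.18 and 6.29 to 6.32. Only 1 of the 11 did not overlap, and Csf1r differed by 0.13. Meningeal fibroblast markers were higher in 9 of 10, with 7.17 and 7.28 to 7.38. Of the 10, 3 did not overlap, and Ptgds differed by 0.05. The largest differences of that list, named after their values were seen, were those of Igfbp2 (0.58) and Igf2 (0.32). The matrix genes Dcn, Lum, Col1a1, Col1a2, Col3a1 and Ogn overlapped, at -0.03 to 0.23. Their part in the differences of Ifit2, Ifit3 and Stat2 was not tested. Endothelial markers were higher in 3 of 8, at 6.71 to 6.84 and 6.72 to 6.81, with Cldn5 at -0.18. Flt1 of that list, named after its values were seen, lay without overlap below wild type at -0.35, and its other 3 probe sets differed by -0.41 to 0.05.

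Mean levels of the lists of blood and immune cells overlapped between genotypes. T and NK cell markers averaged 4.58 to 4.91 in wild type and 4.43 to 5.11 in daDREAM, with 7 of 9 higher and Cd3e at 0.13. For B and plasma cells the ranges were 3.95 to 4.14 and 3.81 to 4.36, with 3 of 4 higher and Cd79a at 0.14. Those of plasmacytoid dendritic cells, the main source of type I interferon in blood, were 5.91 to 6.06 and 6.04 to 6.1, with 4 of 5 higher, and Tcf4, which neurons also express, at -0.07. Neutrophil and monocyte markers were lower in 5 of 6, with Ccr2 at -0.32, and erythroid markers were higher in 2 of 4, with Bpgm at -0.01. Single genes without overlap, named after their values were seen, were S100a9 of the neutrophil list (-0.51) and Bcl11a of the plasmacytoid list (0.18). No list reads 0, since the log2 scale of these arrays has no zero. Only 3 of 9 T and NK markers and 1 of 4 B and plasma markers had a mean level of at least 5. It was 2 of 6 for neutrophils and monocytes, 3 of 5 for plasmacytoid dendritic cells and 2 of 4 for erythroid cells. Signal of genes below that level cannot be separated from background, so the overlap of these lists does not show equal numbers of such cells.

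The remainder of the interferon pathway showed no called gene. Over 9 lists with 114 measured genes besides the members, 0 passed limma after adjustment, where 0% of all genes did, and 0 had an unadjusted p under 0.05, where 1.42% of all genes did. The median difference was 0.02, with 61 genes higher and 51 lower. Genotypes did not overlap at 4, named after their values were seen, Ifi204, Gbp2, Gbp7 and Irgm1, all higher in daDREAM, a share of 3.51% beside 3.55% of all genes, so it was near the background. The mean levels of these 4 genes, 2.87 to 4.99, lie below the array medians, so their signal cannot be separated from background. None of the 114 lay without overlap below wild type, where 2.04% of all genes did.

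Among the ligands, the interferons themselves, 9 of 10 measured genes were higher, with a median of 0.15, but the mean level of the list overlapped between genotypes, at 4.11 to 4.29 and 4.05 to 4.58. Only 3 of the 10 had a mean level of at least 5, and the list's median level of 4.09 lies below the array medians, so most of this signal cannot be separated from background. Ifna1 differed most, by 0.30 with an interval from -0.35 to 0.95, and by 0.015 without daDREAM replicate 3. Receptors, JAK kinases and signalling partners were higher in 6 of 10, with a median of 0.02. Irf9, the DNA-binding partner of STAT2, read 5.19, 5.1 and 4.79 in wild type and 5.33, 5.03 and 5.65 in daDREAM. Its groups overlapped, and the difference was 0.31 with an interval from -0.11 to 0.73. The receptor chains Ifnar1 and Ifnar2 differed by -0.11 and 0.04.

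Sensors of foreign nucleic acid and their adaptors were higher in 12 of 16, with a median of 0.08, but only 8 of the 16 had a mean level of at least 5. Tbk1, the kinase that activates interferon regulatory factors, differed by -0.20. The other interferon regulatory factors were higher in 2 of 6, with Irf1 at 0.13.

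Antiviral effectors, the group functionally nearest to the members, were higher in 20 and lower in 20 of 41, with a median of 0. Of the 41, 21 had a mean level of at least 5. Signal of those below it, among them Mx1 at 3.135, cannot be separated from background. Slfn2 differed by 0.29. Among effectors named whatever their values, Mx1, a GTPase that traps viral particles, differed by -0.19, Oas1a, an RNA-activated synthetase, by 0.13, and Rsad2, which encodes viperin, by -0.15. The GTPases induced by interferon gamma were higher in 5 of 10, among them 3 of the 4 genes without overlap, and Igtp differed by -0.04. Only 1 of these 10 had a mean level of at least 5, and the other probe set of Gbp7 differed by -0.12. Interferon-induced chemokines were higher in 2 of 7, but 0 of the 7 had a mean level of at least 5, so their signal cannot be separated from background. Negative regulators were higher in 4 of 13, with the phosphatase gene Ptpn2 at -0.28. Of the enzymes that attach ISG15 to proteins 1 of 4 was higher, Uba7, the activating enzyme, at 0.33 with an interval from -0.34 to 1.01. It differed by 0.0867 without daDREAM replicate 3 and by -0.673 with the hybridization control level in the model, and its other 2 probe sets by 0 and 0.01. Herc6, counted as lower, differed by -0.13 at its brightest probe set but by 0.11 to 0.19 at its other 3.

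**Figure D5:**
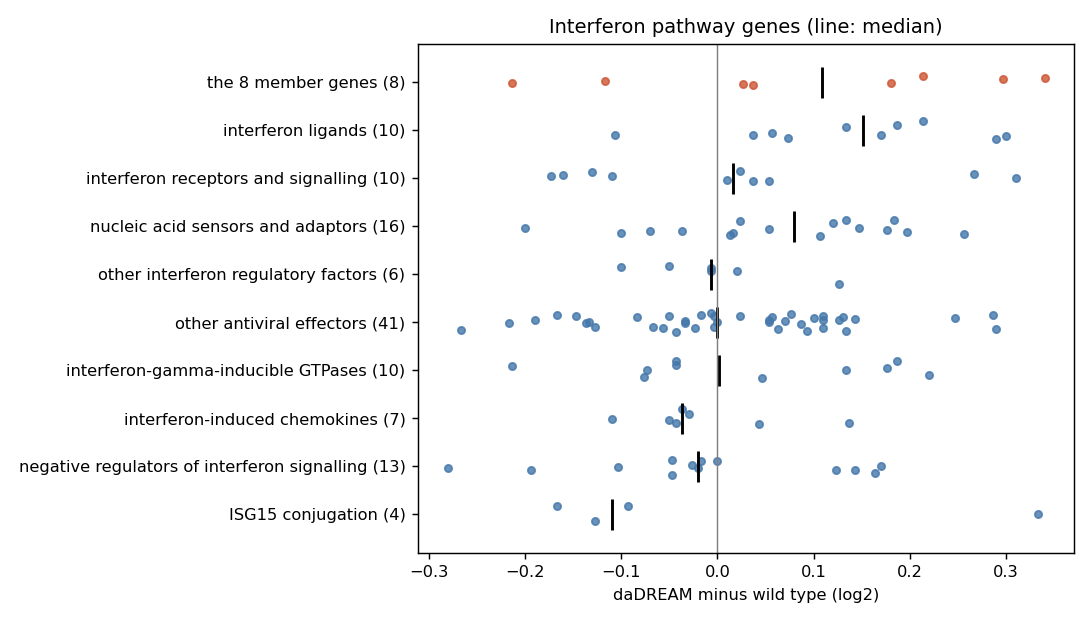
Difference between daDREAM and wild type (log2) of the 8 member genes and of the measured genes of 9 interferon pathway lists, 1 point per gene, with the median of each list as a line and the number of genes in brackets. The lists spread on both sides of 0, with medians from -0.11 to 0.15.

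The genes most alike in pattern were sought over the 6 arrays, by Pearson r with the mean centred level of the 8 members, among 5221 genes with a mean level of at least 5 and an SD of at least 0.2. Cog2 had r = 0.994, Ybx2 0.991, Plppr3 0.985, 4931406H21Rik 0.982 and Trim37 0.981, and 124 genes reached 0.9. These r values are a description over 6 arrays. The mean they were set against follows the hybridization controls at r = 0.997 and averages sets of members with negative r between them. Likeness to it therefore cannot be told apart from likeness to the control level.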

How the data were processed

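Expression on a log2 scale, as deposited by the authors, came from RMA in the affy package per the submitters' processing notes, with versions and settings not given in the sources used here. RMA corrects background, equalises probe distributions between arrays and summarises probes, which can hide a shift shared by most genes. Values ran from 2.46 to 13.8 and carry no detection call.

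The 64 control probe sets were left out, and 45037 were fitted with limma 3.58.1 in R 4.3.3 (lmFit, eBayes, 2-sided, Benjamini-Hochberg over all probe sets, threshold 0.05). The platform annotation names 1 symbol for 34945 of them, several for 932 and none for 9160. For each gene the probe set of highest mean was used. The labels call the arrays independent biological replicates. Precision is limited by the number of arrays: standard errors of a difference had a median of 0.151 and ran from 0.111 to 0.207 for the members. Correlations used all 720 orders of the arrays.

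Named were all members, in each pathway list the gene of at least level 5 with the largest difference, fixed genes of the pathway, the most abundant gene of each marker list and the 5 genes most alike. The members and lists were chosen with earlier results of these data known. The plan counted pairs over 9 genes, and the rule left 8 genes and 28 pairs. The fit was tested on simulated data. The labels name no pairing of same-numbered replicates, whose deviations correlated at 0.119, -0.281 and 0.323. With so few arrays these values cannot settle whether they pair.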

Additional observations from a re-analysis of the deposited data

How the results depend on the processing

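After adjustment limma called 0 of all probe sets and 0 of the members under each of the alternatives. The differences of Ifit2, Ifit3 and both probe sets of Stat2 stayed above 0 in all of those that included them. These were 12 for Ifit3 and Stat2 and 11 for Ifit2, which the filter on a mean level of at least 5 left out. Most of these outcomes were fixed beforehand. Leaving out 1 array cannot turn the sign of Ifit2, Ifit3 and Stat2 1450403_at, whose genotypes did not overlap. The block, the level filter and the variance prior do not change a difference. Only renewed quantile normalization, median centring and the covariate could have turned these signs. Over all 45037 probe sets, 817 had an unadjusted p under 0.05 in the main fit. They numbered 772 with median centring, 799 with the trended, robust prior and 1093 with the replicate number as a block. At a mean level of at least 5 there were 478, and after renewed quantile normalization 1361. With the level of the hybridization controls added as a covariate there were 10471. Without 1 array they numbered 324 to 7254, the last without daDREAM replicate 1. Member probe sets past that threshold numbered 2 of 9 in the main fit. With the level filter there was 1 of 6, and 1 of 9 with renewed quantile normalization and with the trended, robust prior. Median centring left 0, and without 1 array there were 0 to 2. With the covariate 5 of 9 were past it, where 10471 of all 45037 probe sets were. With the replicate number as a block there was 1, and 0 after adjustment, though the labels name no pairing by these numbers. Member probe sets without overlap numbered 1 with median centring, beside 3. The median difference of the members was 0.18 at a mean level of at least 5, -0.018 with the covariate, and 0.049 to 0.128 without 1 array. Their median pairwise r was -0.615 with genotype means subtracted, 0.0767 after renewed quantile normalization, and -0.25 to 0.237 without 1 array. It was 0.237 without wild-type replicate 3 and 0.0954 without daDREAM replicate 1. The cause of these shifts was not tested.

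With the covariate, signs turned for Ifit1 (-0.268), Irf7 (-0.416), Bst2 (-0.116), Ifitm3 (0.0796), Ifna1 (-0.605), Tbk1 (0.367), Irf1 (-0.606), Slfn2 (-0.505), Ptpn2 (0.207), Uba7 (-0.673), Ifnar1 (0.0502), Ifnar2 (-0.0144), Oas1a (-0.552) and the marker genes Cbln1 (0.0286), Ptgds (-0.00127), Cd3e (-0.625), Cd79a (-0.353), Tcf4 (0.0845) and Bpgm (0.232). Bpgm was also 0.0372 after renewed quantile normalization. Without 1 array the sign depended on the array left out for Ifit1 (-0.0733 to 0.107), Usp18 (-0.282 to 0.0333), Bst2 (-0.0183 to 0.102), Tbk1 (-0.443 to 0.0217), Irf1 (-0.14 to 0.345), Cd3e (-0.03 to 0.378), Bpgm (-0.127 to 0.0883), Ifnar2 (-0.135 to 0.18), Oas1a (-0.0417 to 0.353) and Rsad2 (-0.34 to 0.015).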
